A study of Mus musculus with 4 samples.

Results

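The genes described here encode the FOS and JUN families of AP-1 and a close relative, and comprise FOS, FOSB, FOSL1, FOSL2, JUN, JUNB, JUND and BATF. They were taken by gene name, with every non-control probe that carries one of these names, which gave 13 probes of 41000 on the array. All 13 probes passed the filter on dim spots, and the 8 genes stood among 28595 tested features (17862 with a gene symbol), a feature being a gene symbol (by its brightest probe) or a probe with no symbol. Cultures of H460, a standard cell line from a human lung carcinoma, were treated with 250 µM farnesol (FOH in the labels), an isoprenoid alcohol, for 4 h, or with its vehicle, dimethyl sulphoxide (DMSO), for the same time. The experiment was done in duplicate, and each farnesol RNA was hybridised together with its matched vehicle RNA on 2 arrays with the dyes exchanged, so that 4 arrays hold 2 replicates. The organism label names the mouse, but the protocols give a human line and the gene names of the probes are human, so the data were read as human.

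AP-1 is a transcription factor made of 2 basic leucine zipper proteins. FOS proteins cannot pair with one another and bind DNA as partners of JUN proteins, whereas JUN proteins also pair among themselves. FOS, FOSB, JUN and JUNB are immediate early genes, whose transcription starts within minutes of a growth factor or stress signal without new protein synthesis, through factors already bound at their promoters, and several of their RNAs are short-lived. FOSL1 and FOSL2 are usually induced later and last longer, in part under the control of AP-1 itself. JUND is expressed in most resting cells. BATF pairs with JUN proteins, acts mainly in lymphocytes and lacks the transactivation domain of FOS.

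Between 82.7% and 93.0% of probe spots were well above background in the farnesol channel and between 88.9% and 91.2% in the vehicle channel. Dye-swapped arrays of one replicate correlated at 0.942 to 0.943 across features, and arrays of different replicates at 0.633 to 0.684, where features are not independent. The keratins KRT8, KRT18 and KRT19 lay between the 97.5th and 99.3rd percentile of probe brightness, and NKX2-1, a lung lineage factor, at the 35.5th. PDGFRB, a fibroblast marker, did not pass the filter on dim spots. Brightness differs between probes for the same amount of RNA, so these percentiles describe the signal and not the number of transcripts.

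The farnesol cells had far more FOS and JUN signal than the vehicle cells, by 109-fold for FOS and 103-fold for JUN. JUN's value rested in replicate 1 on saturated farnesol spots and so is a lower bound there. Across the background treatments tried, the FOS value ran from 102-fold to 190-fold. JUNB (10.7-fold), FOSB (7.67-fold) and JUND (3.65-fold) were also higher, FOSL1 and FOSL2 less so by their brightest probes (1.93-fold and 1.60-fold), and BATF was at the vehicle level (log2 ratio 0.02). When the mean of the 2 replicates was tested against 0 with limma, with Benjamini-Hochberg adjustment over all 28595 features, 1 of the 8 genes passed, JUN, against 0.0105% of all features. By size, 5 of the 8 (FOS, JUN, JUNB, FOSB and JUND) were higher on each of the 4 arrays and by 2-fold or more in each replicate, which is 62.5%, against 0.657% of all features. None of the 8 was at least 2-fold lower in both replicates, against 0.238% of all features.

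**Figure D1:**
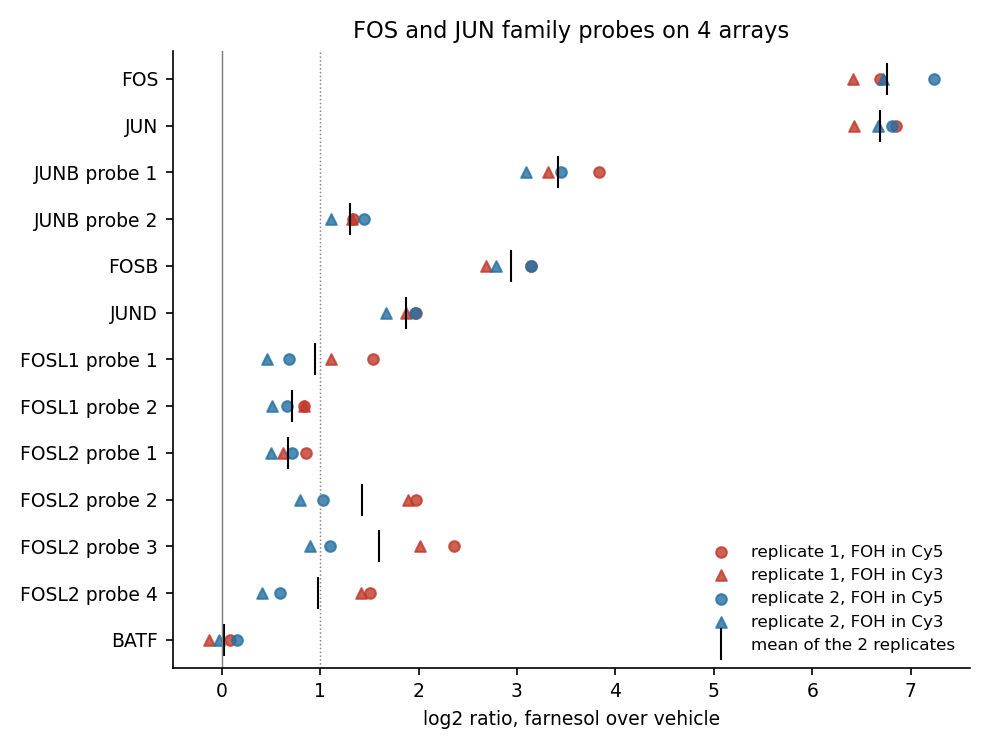
Log2 ratio of farnesol over vehicle (horizontal axis) for each of the 13 probes on each of the 4 arrays, with replicate 1 in red, replicate 2 in blue, circles for farnesol in Cy5 and triangles for farnesol in Cy3, and a bar at the mean of the 2 replicates. Probes of a gene are numbered from the one that stands for it and then by brightness, and the dotted line marks a 2-fold difference. FOS and JUN lie above 6 on every array and the BATF points lie on both sides of 0.

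In the FOS family, FOS stood apart from the others. FOS, the partner of JUN in the classical AP-1 dimer, had log2 intensities of 13.84 and 13.59 in farnesol cells, against 7.29 and 6.61 in vehicle cells. Its log2 ratios on the single arrays were 6.69 and 6.41 in replicate 1 and 7.23 and 6.72 in replicate 2, farnesol in Cy5 first. Every farnesol value lay above every vehicle value by more than 6 log2 units, and the spot was not saturated on any array. The mean log2 ratio was 6.76 ± 0.30 (SD, n = 2; 95% interval 6.31 to 7.22 from the limma fit), the 4th highest of all features. With a limma adjusted p of 0.103, FOS did not pass. The interval holds for the background correction used here. By the scanner software's processed signals the mean log2 ratio was 7.57, above that interval.

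FOSB, a close paralogue of FOS that is induced with it in many cells, had log2 intensities of 10.25 and 10.05 in farnesol cells, against 7.33 and 7.08 in vehicle cells. Its array log2 ratios were 3.14 and 2.69 in replicate 1 and 3.14 and 2.79 in replicate 2. The groups were well apart and the replicates were close, at 2.91 and 2.97. The mean was 2.94 ± 0.04 (SD, n = 2), with a limma adjusted p of 0.103, so FOSB did not pass either.

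FOSL1, which encodes FRA1, a FOS family protein without the strong transactivation domain of FOS, was measured by 2 probes. The brighter one, A_23_P161624, had log2 intensities of 8.60 and 7.76 in farnesol cells, against 7.27 and 7.18 in vehicle cells. Its log2 ratio was 1.32 in replicate 1 and 0.57 in replicate 2, so the size of the difference depended on the replicate, and the groups did not overlap. The mean was 0.95 ± 0.53 (SD, n = 2), with a limma adjusted p of 0.287. The dimmer probe, A_23_P322519, had log2 intensities of 6.95 and 6.53 in farnesol cells, against 6.12 and 5.94 in vehicle cells, and a mean log2 ratio of 0.71 ± 0.18 (SD, n = 2). Its farnesol spot was well above background on 4 of 4 arrays and its vehicle spot on 2 of 4, both of replicate 1.

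FOSL2, which encodes FRA2, was measured by 4 probes that gave different sizes. The brightest, A_23_P345581, which stands for the gene, had log2 intensities of 9.92 and 9.52 in farnesol cells, against 9.18 and 8.91 in vehicle cells. Its log2 ratio was 0.74 in replicate 1 and 0.61 in replicate 2, with a mean of 0.67 ± 0.09 (SD, n = 2) and a limma adjusted p of 0.191. The other 3 probes gave larger ratios in replicate 1. A_23_P218555 had log2 intensities of 9.97 and 8.35 in farnesol cells, against 7.77 and 7.35 in vehicle cells, a log2 ratio of 1.59 ± 0.84 (SD, n = 2). A_23_P343671 gave 1.94 and 0.91 in replicates 1 and 2, and A_23_P348121 gave 1.47 and 0.50. The gap between the replicates was thus 0.13 for the brightest probe and 0.96 to 1.19 for the others. All 4 probes were higher with farnesol on all 4 arrays, and their mean log2 ratio was 1.17. Which transcripts each probe reads was not examined here.

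The JUN family held the one gene that passed the test. JUN, which encodes the archetypal JUN protein and is itself activated by AP-1 dimers, had log2 intensities of 16.10 and 15.66 in farnesol cells, against 9.46 and 8.93 in vehicle cells. Its array log2 ratios were 6.85 and 6.42 in replicate 1 and 6.81 and 6.67 in replicate 2. The replicate means were 6.64 and 6.74, and all farnesol values lay more than 6 log2 units above all vehicle values. JUN rose by a mean log2 ratio of 6.69 ± 0.07 (SD, n = 2; 95% interval 6.48 to 6.89 from the limma fit), with a limma adjusted p of 0.0340, the 5th highest ratio of all features. The farnesol spot was saturated on 2 of 4 arrays, both of replicate 1, and no vehicle spot was. The value of replicate 1 is therefore a lower bound, and the mean, its SD and interval, the p and the rank all use it, so the small SD does not show that the replicates agreed. With saturated spots left out, replicate 2 alone remained, at 6.74, and JUN could no longer be tested.

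JUNB, which shares the JUN zipper but activates many promoters less strongly, had log2 intensities of 14.00 and 13.47 in farnesol cells, against 10.43 and 10.19 in vehicle cells, by its brighter probe, A_23_P4821. Its array log2 ratios were 3.83 and 3.31 in replicate 1 and 3.45 and 3.09 in replicate 2. The mean was 3.42 ± 0.21 (SD, n = 2), with a limma adjusted p of 0.169. The second probe, A_24_P241815, had log2 intensities of 8.97 and 8.58 in farnesol cells, against 7.64 and 7.30 in vehicle cells, and a log2 ratio of 1.30 ± 0.04 (SD, n = 2). Both probes were higher by at least 2-fold in each replicate, but they differed in size by far more than either varied between replicates, at 10.7-fold and 2.47-fold.

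JUND, the family member with the most constant expression in many tissues, had log2 intensities of 13.21 and 13.02 in farnesol cells, against 11.29 and 11.21 in vehicle cells. Its array log2 ratios were 1.97 and 1.87 in replicate 1 and 1.96 and 1.67 in replicate 2, well apart from 0 on every array. The mean was 1.87 ± 0.07 (SD, n = 2), with a limma adjusted p of 0.174, so it did not pass.

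BATF was the exception to the direction. It had log2 intensities of 6.12 and 6.30 in farnesol cells, against 6.14 and 6.23 in vehicle cells, and the groups overlapped. Its array log2 ratios were 0.08 and -0.13 in replicate 1 and 0.16 and -0.03 in replicate 2, higher with farnesol on 2 of 4 arrays. The mean was 0.02 ± 0.06 (SD, n = 2; 95% interval -0.18 to 0.22 from the limma fit), with a limma adjusted p of 0.905. The signal was dim in both groups, though well above background on 4 of 4 arrays in each. The background offset used here draws the ratios of dim spots toward 0. With an offset of 0, the log2 ratios of BATF were -0.10 and 0.14 in replicates 1 and 2, and the mean was again 0.02.

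**Figure D2:**
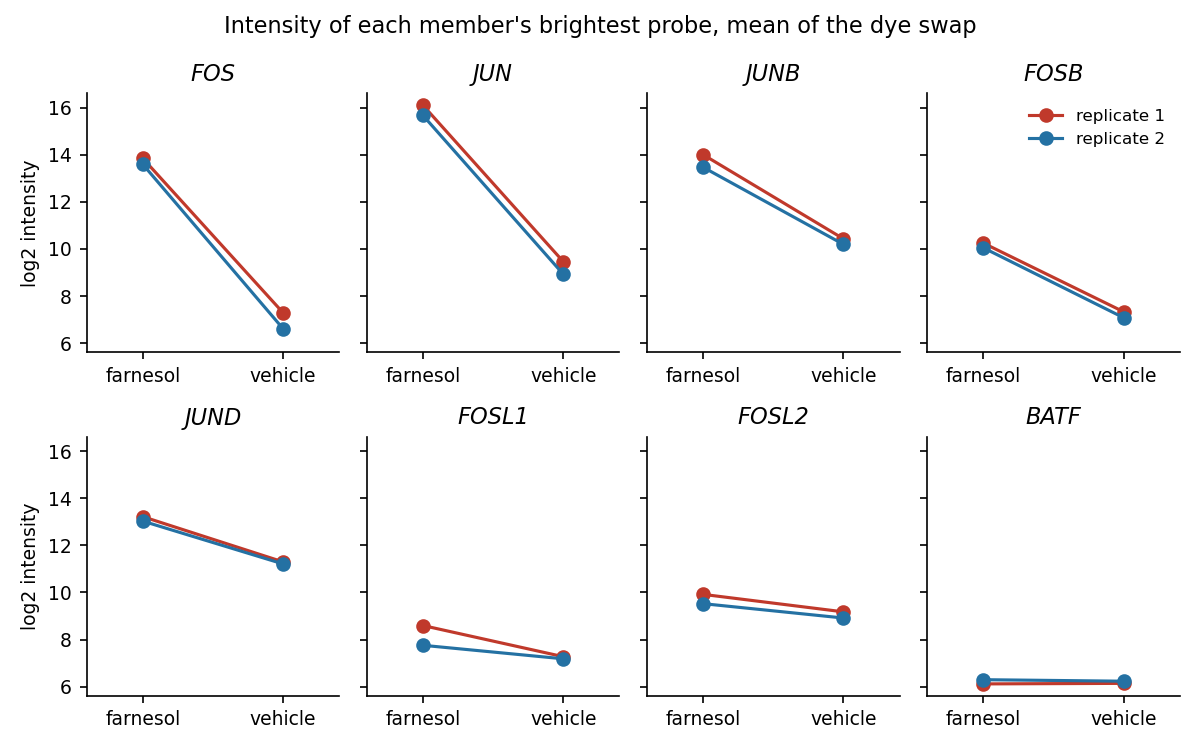
Normalised log2 intensity of each gene's brightest probe (vertical axis) in farnesol and vehicle cells, 1 line per replicate, each point being the mean of the dye-swapped arrays. The lines of FOS and JUN are the steepest, JUND lies high in both groups, and the BATF lines are flat near 6. The heights of different panels are not to be set against each other, since probes differ in brightness for the same amount of RNA.

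Ordered by the log2 ratio of each gene's brightest probe, FOS and JUN came first, followed by JUNB, FOSB, JUND, FOSL1, FOSL2 and BATF. FOS and JUN could not be ordered, since JUN was saturated in replicate 1 and the lowest replicate of FOS (6.55) lay below the highest of JUN (6.74). FOSL1 and FOSL2 overlapped too, with 0.57 for the lower FOSL1 replicate and 0.74 for the higher FOSL2 replicate. The other neighbours were apart in the replicate values of these probes. Other probes would change the order: the second JUNB probe (1.33 and 1.28) lay below FOSB and JUND, and in replicate 1 FOSL2 probes A_23_P218555 and A_23_P343671 (2.19 and 1.94) lay above JUND (1.92). With all probes averaged per gene, JUNB (2.36) lay below FOSB (2.94) and FOSL2 (1.17) above FOSL1 (0.83). The median log2 ratio of the 8 genes was 2.40, and that of all features was 0.01. In total, 12 of the 13 probes were higher with farnesol on all 4 arrays, the exception being BATF. Counted by replicate, 7 of the 8 genes were higher in both, against 10120 of all 28595 features. At an unadjusted limma p under 0.05 stood 7 of the 8 genes, all but BATF, against 14.5% of all features.

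The widest gaps between the replicates were those of 3 FOSL2 probes and the brighter FOSL1 probe, while the brightest FOSL2 probe had a gap of 0.13. All 6 of their probes had a larger log2 ratio in replicate 1 than in replicate 2, as had 3 of the 7 other probes, for which the largest gap was 0.42. Among the 188 features at least 2-fold higher in both replicates, 75% had the larger ratio in replicate 1. The part of culture or array handling in this was not tested.

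**Figure D3:**
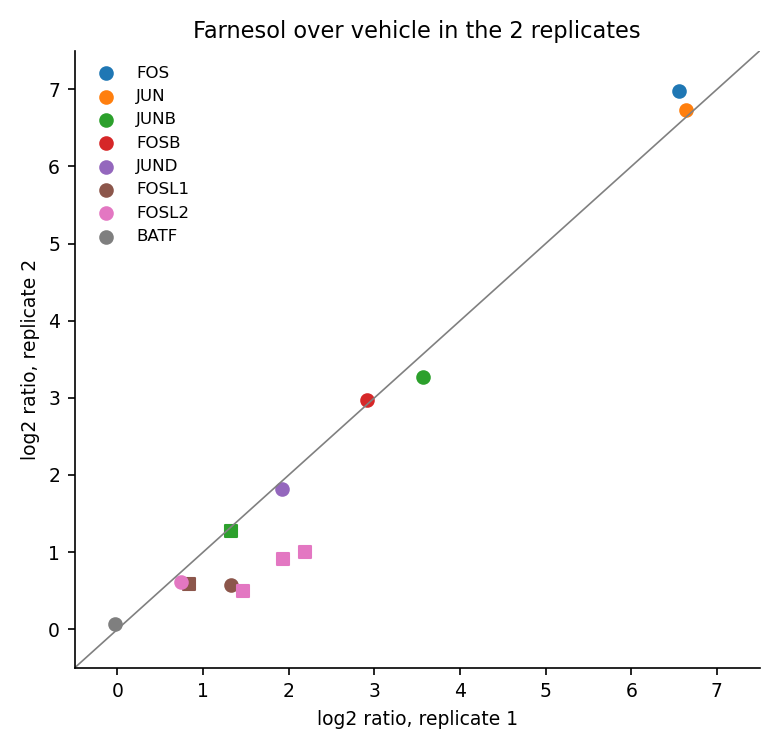
Log2 ratio of farnesol over vehicle in replicate 1 (horizontal) and replicate 2 (vertical) for the 13 probes, circles for the probe that stands for its gene, squares for other probes, and the line of equal values. FOS and JUN sit at the top right near the line, and the FOSL1 and FOSL2 points lie below it.

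The dye orientation also moved with the ratios. All 13 probes had a larger mean log2 ratio on the arrays with farnesol in Cy5 than on those with farnesol in Cy3, by 0.08 to 0.44 (median 0.22). The ratio was likewise larger with farnesol in Cy5 for 156 of the 188 features at least 2-fold higher and for 16118 of all 28595 features. The same gap had a median of 0.17 over these 188 features and 0.01 over all features. Averaging a dye-swapped pair cancels a constant dye effect. On the arrays with farnesol in Cy3 alone, the log2 ratio of BATF was -0.078.

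The sizes for FOS, FOSB, FOSL1 and FOSL2 depended on the treatment of background. FOS, 109-fold with the offset of 50, was 181-fold with an offset of 0 and 190-fold by the scanner software's processed signals. With no background subtraction FOS was 102-fold. FOSB, 7.67-fold with the offset of 50, was 11.2-fold, 11.5-fold and 7.36-fold under the same 3 treatments, in that order. With the offset of 50 used here, no FOSL1 or FOSL2 probe was at least 2-fold higher in both replicates. With an offset of 0, 1 of the 2 FOSL1 probes and 3 of the 4 FOSL2 probes were, against 1.02% of all 37342 tested probes. The dim FOSL1 probe A_23_P322519 then had log2 ratios of 1.92 and 1.78 in replicates 1 and 2, and by the scanner software's processed signals 2.26 and 2.15. Its vehicle spot was not well above background on either array of replicate 2, so its ratios there, and the FOSL1 count that needs them, rest on a vehicle level that was not measured. By the same processed signals FOSL2 probe A_23_P348121 gave 2.52 and 1.49, while the brightest FOSL2 probe gave 0.82 and 0.71.

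The authors' deposited table, a linear ratio of farnesol over vehicle for replicate 1, listed 7018 probes, against 41000 on the array. Of the 13 probes, 12 were listed and the BATF probe was not. In the authors' deposited table, FOS stood at 144.5 and JUN at 108.2, JUNB at 12.3 and 3.07 by its brighter and dimmer probe, FOSB at 10.6 and JUND at 3.93. FOSL1 stood at 3.20 and 4.80 in the authors' deposited table, and FOSL2 between 1.76 and 5.73. In that table, too, the brightest FOSL2 probe had the smallest ratio of the 4. The authors' ratios followed the scanner's log ratios (r = 0.9999 across probes) and not the background correction used here. By that correction, replicate 1 gave 93.8-fold for FOS, 99.4 for JUN (saturated), and 11.9 and 2.51 for JUNB. It gave 7.54 for FOSB, 3.78 for JUND, 2.50 and 1.79 for FOSL1, and 1.67 to 4.57 for FOSL2.

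Among named features other than the 8 genes themselves, those most like each gene were found by the Euclidean distance of their log2 ratios over the 4 arrays, a measure that uses size as well as shape. Nearest to FOS were ATF3 (distance 1.25), EGR2 (1.31) and EGR4 (1.33), and nearest to JUN were EGR2 (0.955), ATF3 (1.15) and IL8 (1.16). EGR2 and EGR4 are zinc finger transcription factors of the immediate early class, and IL8 is a neutrophil chemokine. JUNB lay nearest to the phosphatase gene DUSP2 (0.396), the surface protein gene CD83 (0.438) and the transcription factor gene KLF2 (0.601). FOSB lay nearest to the co-chaperone gene DNAJB1 (0.416), the histone gene HIST1H4H (0.421) and the small GTPase gene RRAD (0.463). JUND lay nearest to HIST2H2AA (0.140), HIST1H1C (0.331) and PPP1R15A (0.334), the last a regulatory subunit of a phosphatase that acts on eIF2α. Many histone genes have close copies within their own class, so these probes may read several genes.

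Of the proteins that pair with or resemble FOS and JUN, 10 of 11 listed genes were tested, BATF2 having no probe of that name, and none passed the limma test (5 at an unadjusted p under 0.05). Over all features, 14.5% stood at an unadjusted p under 0.05. Only ATF3 passed the 2-fold limit in both replicates, 10% of the list against 0.657% of all features. ATF3, a stress-induced factor that pairs with JUN proteins, had log2 ratios of 7.39 and 6.80 in replicates 1 and 2, a mean of 7.09 ± 0.42 (SD, n = 2) with a limma adjusted p of 0.134. A second ATF3 probe gave 2.90. With an offset of 0, with processed signals and with median centring, ATF3 passed, its lowest limma adjusted p being 0.00572. The small MAF proteins MAFK and MAFF, which have no transactivation domain, had 0.87 ± 0.49 and 0.59 ± 0.28 (SD, n = 2 each), and a second MAFK probe gave 0.11. In all, 6 of the 10 were higher in both replicates and 2 lower, against 10120 and 8618 of all 28595 features. The list's median log2 ratio was 0.10.

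The kinases that activate FOS and JUN, the JNK, ERK and p38 modules and their substrates, did not show a common direction in their RNA. Of 22 tested, none passed the limma test and none differed 2-fold in both replicates. At an unadjusted p under 0.05 stood 3, against 14.5% of all features. In both replicates 6 were higher and 8 lower, against 10120 and 8618 of all 28595 features. Their median log2 ratio was -0.03. The largest by size were MAP2K3, a p38 activator, at 0.94 ± 0.54, MAPK14, the gene of p38α, at -0.71 ± 0.29, and RPS6KA3, a kinase downstream of ERK, at -0.50 ± 0.62 (SD, n = 2 each). Second probes gave 0.59 for MAP2K3, -0.09 for MAPK14 and -0.23 for RPS6KA3. The activity of these kinases is set by phosphorylation, which arrays do not measure.

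Of the 11 factors that drive transcription of the FOS and JUN genes, all were tested, none passed the limma test (1 at an unadjusted p under 0.05), none was 2-fold different in both replicates, and the median log2 ratio was 0.01. SRF, which binds the serum response element of FOS, had 0.47 ± 0.22, its cofactor gene MKL2 -0.36 ± 0.58 and MEF2D 0.34 ± 0.27 (SD, n = 2 each). The lowest of 3 SRF probes gave 0.11, and second probes gave -0.51 for MKL2 and 0.07 for MEF2D. In the list of factors that degrade or restrain FOS and JUN proteins, 9 of 10 genes were tested (RNF187 had no probe of that name) and none passed the limma test, with 2 at an unadjusted p under 0.05. None of the 9 was higher in both replicates, 5 were lower in both, and the median was -0.20. Of all 28595 features, 10120 were higher and 8618 lower in both, and 14.5% had an unadjusted p under 0.05. RFWD2, which encodes the ubiquitin ligase COP1 that acts on JUN, had -1.01 and -0.71, a mean of -0.86 ± 0.21 (SD, n = 2) with a limma adjusted p of 0.195, and a second probe gave -0.48. FBXW7, another ligase of JUN, had 0.32 ± 0.51 and COPS5 had -0.32 ± 0.13 (SD, n = 2 each). A second FBXW7 probe gave 0.10.

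Genes known as AP-1 targets gave a mixed picture. Of 25 tested, none passed the limma test (8 at an unadjusted p under 0.05), 2 had ratios past 2-fold in both replicates (IL8 and AREG), 17 were higher and 3 lower in both, and the median log2 ratio was 0.18. IL8 had 7.37 and 6.41 in replicates 1 and 2, a mean of 6.89 ± 0.67 (SD, n = 2) with a limma adjusted p of 0.183, and it passed with the same 3 alternatives as ATF3 (lowest adjusted p 0.00969). AREG, an EGF receptor ligand, had 4.69 and 1.36, so its replicates were far apart (mean 3.03 ± 2.36, SD, n = 2). MT2A, a metallothionein, had 1.09 ± 0.69 (SD, n = 2). The probes of IL6, named here after its values were seen, disagreed: the brighter gave 0.27 ± 0.36 and the other, with 4.12 and 1.87 in replicates 1 and 2, gave 2.99 ± 1.59 (SD, n = 2 each). Over all features, 10120 were higher and 8618 lower in both replicates.

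**Figure D4:**
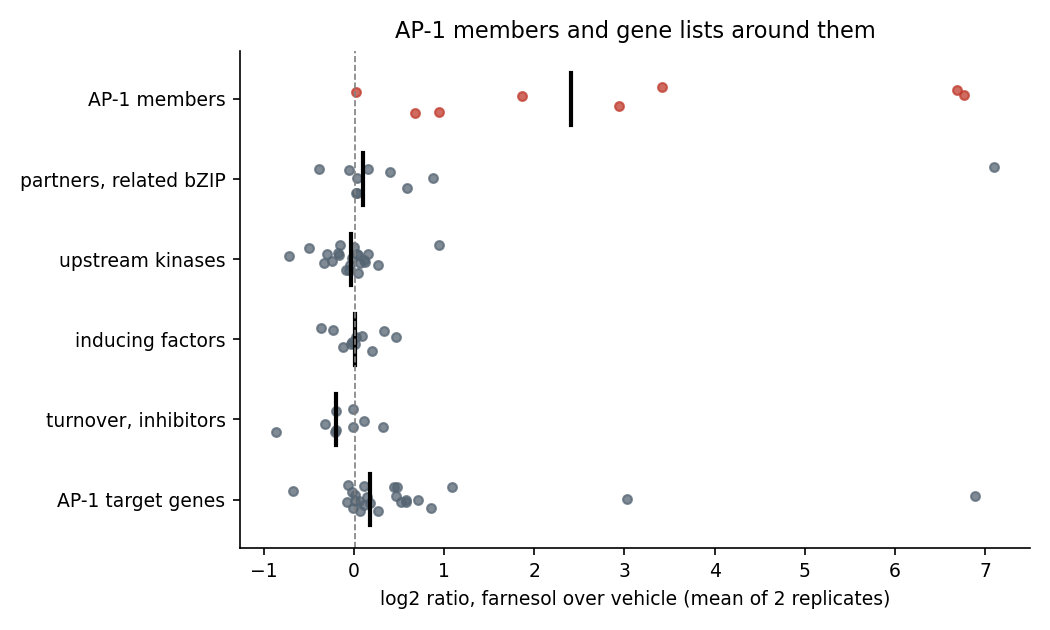
Log2 ratio of farnesol over vehicle, mean of the 2 replicates (horizontal axis), for each tested gene of the AP-1 members (red) and of 5 lists around them (grey), with a black bar at each list's median and a dashed line at the median of all features. Vertical scatter within a row has no meaning. ATF3 and IL8 are the only grey points beyond 6, and the members' median of 2.40 stands apart from the others, which run from -0.20 to 0.18.

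The lists of cell type markers had median log2 ratios between -0.27 and 0.11. Of the epithelial and lung markers, 7 were tested and their median log2 ratio was -0.27. In both replicates 6 of them were lower with farnesol, against 8618 of all 28595 features. The medians were 0.09 for 5 leukocyte markers, 0.11 for 4 of 5 fibroblast markers and 0.01 for 5 endothelial markers. No marker passed the limma test or was 2-fold different in both replicates. At an unadjusted p under 0.05 stood 2 epithelial and lung markers, 1 fibroblast marker and 0 of the others, against 14.5% of all features. The samples were bulk RNA of H460 cultures, so the marker lists were not read as shares of different cell types.

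**Figure D5:**
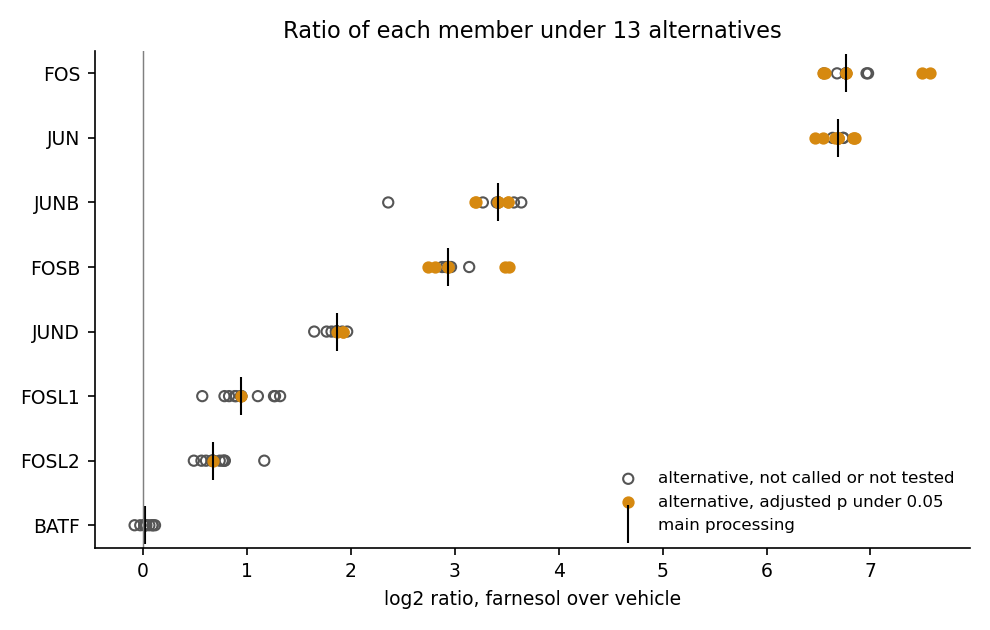
Log2 ratio of farnesol over vehicle for each gene (horizontal axis) under the main processing (bar) and under 13 alternatives (circles), filled where the limma adjusted p was under 0.05. FOS and JUN lie above 6 under every alternative, JUN is filled under all that could test it, and BATF is open throughout. All alternatives that could test JUN keep its saturated farnesol spots of replicate 1.

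Which of the 8 genes passed the test depended on the processing. JUN passed in 10 of 10 alternatives that could test it, with limma adjusted p between 6.74e-05 and 0.0432 and log2 ratios of 6.47 to 6.85. All 10 kept the saturated farnesol spots of replicate 1, so these passes do not show that the JUN replicates agreed. FOS, JUNB and FOSB passed in 6 of 11 each, and FOS ranged from 6.54 to 7.57. JUND passed in 3 of 11, FOSL1 and FOSL2 in 1 of 11 each, and BATF in none. The lowest p of JUN and the only passes of FOSL1 and FOSL2 came from the fit of all 4 arrays with the replicate block. That fit counts technical dye swaps as degrees of freedom, and the fit of separate channels had no replicate block at all. With an offset of 0, 5 of the 8 passed and 66 features in all. The 5 genes at least 2-fold higher in both replicates stayed above 1 on the log2 scale in every alternative run, with JUND lowest at 1.65. With 2 replicates the p-values measure the spread between these 2 experiments, and moderation added 1.81 degrees of freedom to the 1 of each feature.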

How the data were processed

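The deposited intensity values, per the file headers, were mean spot and median local background brightness in 2 channels, read by Agilent Feature Extraction 8.1.1.1, whose deposited log10 ratio was used for checks and whose processed signals served as an alternative. The authors' deposited table held a linear ratio of farnesol over vehicle for replicate 1, whose direction matched the scanner's log ratios (r = 0.9999 across probes).

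With limma 3.58.1 (R 4.3.3, data.table package version 1.17.8), background was corrected by normexp (offset 50) and ratios were loess-normalized within arrays, with control and outlying spots at weight 0 and then dropped and saturated spots kept. Arrays with farnesol in Cy3 were turned in sign and dye swaps averaged, so n = 2 and SD is the spread of 2 replicates. A log2 intensity is that of a channel after loess. A probe was tested if, in 1 of the conditions, each replicate had an array where it was well above background. The test is two-sided at an adjusted p of 0.05. Scripts were tested on simulated data.

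All probes of the members are named. Of each other list, genes at least 2-fold in both replicates (at most 8) or past the limma threshold are named, and the 3 largest where fewer than 3 qualify, besides the 3 nearest features of each 2-fold member. The members and lists were chosen with earlier results of these data known. Arrays carried 4 slides and 1 scan day. Probe and gene sequences and gene positions are not given here. Alternatives changed 1 choice at a time (closing section).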

Additional observations from a re-analysis of the deposited data

How the results depend on the processing

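The count of features past the limma threshold was 3, and 1 of the 8 genes passed. It was 66 features and 5 genes with an offset of 0, 62 and 5 with the scanner software's processed signals, and 25 and 4 with median centring in place of loess. It was 15 and 4 with channels fitted separately with no replicate block, 5 and 1 with only the arrays that had farnesol in Cy5, and 15 and 4 with only those that had it in Cy3. The fit with no replicate block did not tie the dye swaps of a replicate together. With all 4 arrays fitted and the replicate block (correlation 0.549), 2894 features and 7 genes passed, a fit that counts technical dye swaps as degrees of freedom. With saturated spots left out, 0 of the 8 genes and 2 features passed, since JUN then had 1 replicate (6 of the 7 still tested had an unadjusted p under 0.05). The cause of the other changes was not tested. No other alternative moved these counts by over 1.5 times, including every probe kept as a feature of its own (4 features, 1 gene), which was chosen after seeing the data. Genes at least 2-fold higher numbered 4 or 5 in all alternatives with both replicates, and 5 and 6 with either replicate left out (FOSL1 joined in replicate 1 alone). The log2 ratio of BATF, 0.02 in the main setting, was -0.078 with farnesol in Cy3 only. The split of 2-fold features was 188 higher and 68 lower, and with median centring 155 higher and 136 lower. Two-replicate spread and saturation of JUN limit the precision. The sizes of FOS, FOSB, FOSL1 (above all its dim probe A_23_P322519) and FOSL2 depend on the offset. The mean of BATF, also dim, was 0.02 with either offset.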
